A study of Homo sapiens with 6 samples.

Results

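The 8 genes described here encode the cell-surface plasminogen activation system and the tissue factor pathway: PLAU, PLAT, PLAUR, SERPINE2, F3, TFPI, TFPI2 and THBD. They were chosen by gene symbol from the 58174 genes listed for each sample, and all 8 were found. Urokinase (PLAU) and tissue-type plasminogen activator (PLAT) are serine proteases that cut plasminogen into plasmin, which dissolves fibrin and degrades pericellular matrix. The receptor PLAUR holds urokinase at the cell surface, and serpins such as SERPINE2 trap both activators. Tissue factor (F3) is the membrane receptor of coagulation factor VII and starts the extrinsic clotting pathway, while TFPI blocks the complex that F3 forms and thrombomodulin (THBD) turns thrombin towards the activation of protein C. TFPI2, a Kunitz-type relative of TFPI, inhibits plasmin and other serine proteases and is deposited in the extracellular matrix. Tumour cells, including those of the bladder, are known to make several of these proteins, which link matrix invasion with clotting around the tumour.

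Expression was measured by RNA-seq in T24, an established human bladder cancer cell line. The shRNA-UBC9 group (n = 3) carried a lentiviral shRNA against UBC9, the sole E2 conjugating enzyme of SUMO. The shRNA-NC group (n = 3) carried a scrambled control shRNA delivered in the same way, and both groups had been selected with puromycin. Only 1 hairpin against UBC9 was used, and the sources do not state whether the samples of a group were separate cultures, so the p-values measure the spread between these samples, which may be technical. Values are RPKM, read counts scaled to the length of the gene and to the mapped reads of the sample. The steps between low RPKM values gave totals of 28219032 to 36058872 reads per sample, and the reads behind the 8 genes ranged from 284 for THBD to 74829 for TFPI2. Of the 6 epithelial markers examined, KRT7, KRT8, KRT18 and KRT19 were at 0.5 RPKM or more in every sample and CDH1 was near 0, while EPCAM lay between 0.412 and 2.51 RPKM. Of the 6 urothelial markers, GATA3 and PPARG were above 0.5 RPKM in every sample and the 4 uroplakin genes below it. The mesenchymal markers VIM, CDH2, FN1 and ZEB1 were above 0.5 RPKM in every sample too, with means of 468, 46.3, 591 and 4.47 RPKM in shRNA-NC.

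The promoter sequences of F3, PLAUR and PLAU are shown because they belong to the initiator of clotting and to the urokinase pair, and those of TFPI2 and TFPI because these relatives moved in opposite directions; the last 2 were picked after their values had been seen. Each is the 250 bases before the transcription start in RefSeq (GRCh38.p14), read 5′ to 3′ on the strand of the gene. Capitals mark matches to the AP-1 motif TGANTCA, to the kappaB-type motif GGNNTTTCC and to the TATA box TATAAA, searched on both strands. No binding was measured here, and a match of letters describes the sequence alone.
F3 (chr1:94541760-94542009, minus strand): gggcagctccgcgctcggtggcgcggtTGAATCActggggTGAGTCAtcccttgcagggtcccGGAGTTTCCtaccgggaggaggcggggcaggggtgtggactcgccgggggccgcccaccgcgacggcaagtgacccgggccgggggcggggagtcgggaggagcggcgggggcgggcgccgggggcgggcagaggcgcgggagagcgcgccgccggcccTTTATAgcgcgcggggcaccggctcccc
PLAUR (chr19:43670170-43670419, minus strand): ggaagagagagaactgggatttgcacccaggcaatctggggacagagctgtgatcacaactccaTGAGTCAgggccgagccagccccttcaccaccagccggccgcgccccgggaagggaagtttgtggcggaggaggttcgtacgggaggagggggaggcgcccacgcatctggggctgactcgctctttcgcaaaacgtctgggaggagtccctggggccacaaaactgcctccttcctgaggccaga
PLAU (chr10:73910882-73911131, plus strand): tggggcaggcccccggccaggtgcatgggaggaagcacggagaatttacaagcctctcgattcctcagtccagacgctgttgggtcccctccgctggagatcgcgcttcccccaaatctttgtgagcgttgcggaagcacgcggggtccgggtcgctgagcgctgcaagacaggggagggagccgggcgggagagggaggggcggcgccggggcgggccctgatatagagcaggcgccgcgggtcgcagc
TFPI2 (chr7:93890754-93891003, minus strand): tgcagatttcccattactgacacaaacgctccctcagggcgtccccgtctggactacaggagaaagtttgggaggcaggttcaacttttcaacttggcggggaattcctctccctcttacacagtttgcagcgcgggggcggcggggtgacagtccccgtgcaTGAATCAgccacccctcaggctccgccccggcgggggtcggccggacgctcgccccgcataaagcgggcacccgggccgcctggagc
TFPI (chr2:187554436-187554685, minus strand): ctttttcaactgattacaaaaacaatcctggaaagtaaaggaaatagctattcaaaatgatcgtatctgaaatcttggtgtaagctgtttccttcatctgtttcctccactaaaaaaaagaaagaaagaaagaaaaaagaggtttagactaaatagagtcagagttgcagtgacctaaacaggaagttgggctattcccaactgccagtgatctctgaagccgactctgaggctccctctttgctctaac

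The F3 promoter held 2 AP-1 matches, at 223 to 217 and at 210 to 204 bases before the start, 1 kappaB-type match at 187 to 179 bases and a TATA box match on the other strand at 28 to 23 bases. PLAUR held 1 AP-1 match at 186 to 180 bases and TFPI2 held 1 at 87 to 81 bases. No match to these 3 motifs lay in the windows of PLAU and TFPI. Over all 35116 promoter windows of this length, 6.57% held the AP-1 motif, 5.48% the kappaB-type motif and 10.7% the TATA box. The GC box GGGCGG, left in lower case, occurred 4 times in F3, 3 times in the PLAU window shown, 2 times in TFPI2 and in neither PLAUR nor TFPI. Of all windows, 42.6% held it. The PLAU window not shown held none of these motifs. None of the capitalised matches overlapped another. The window of F3 was 78% G and C, against 38.4% for TFPI. Windows were found for 6 of the 8 genes, with PLAT and THBD missing from the table.

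Knockdown of UBC9 was accompanied by higher levels of TFPI2, F3, PLAUR and THBD and by lower levels of PLAT and TFPI. PLAU and SERPINE2 did not pass the cutoff for DEGs, a log2 fold change (log2FC, shRNA-UBC9 over shRNA-NC) beyond 1 in either direction with an adjusted p-value below 0.05 (limma on log2(RPKM + 0.1) over 12428 genes with at least 0.5 RPKM in at least 3 samples). All 8 genes passed this filter on low values. Thus 4 of 8 were up-regulated, where 5.20% of all tested genes were, and 2 of 8 were down-regulated, where 2.70% of all tested genes were. In either direction, 6 of 8 passed, against 7.89% of all tested genes. The median log2 fold change was 1.07 over the 8 genes and 0.0048 over all tested genes. The 8 genes were chosen with earlier results of these data known, so these shares and medians are a description. For the same 6 genes the values of the groups did not overlap, but this was also true of 51.1% of all tested genes. In a bulk sample, fewer cells expressing a gene and less RNA per cell cannot be told apart.

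**Figure D1:**
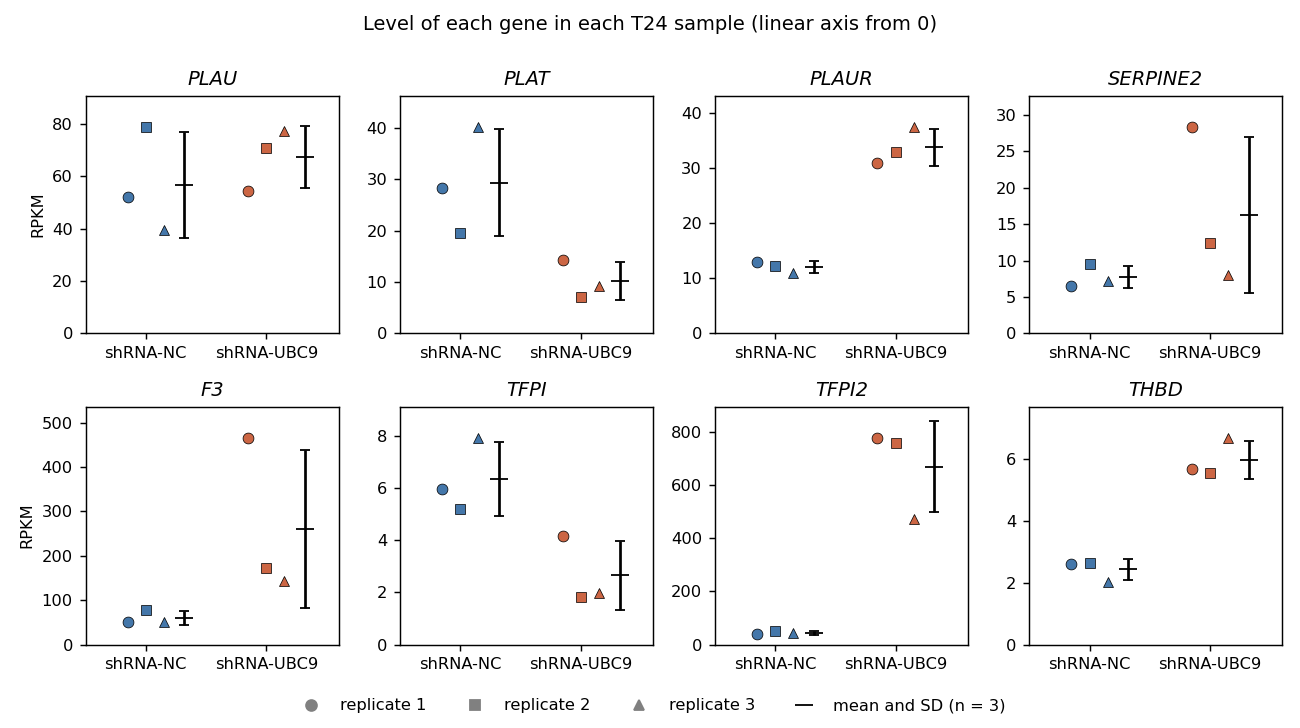
RPKM (linear axis from 0) of each of the 8 genes in the 3 shRNA-NC and 3 shRNA-UBC9 samples, with the mean and SD of each group beside the points. The groups are apart for PLAT, PLAUR, F3, TFPI, TFPI2 and THBD and overlap for PLAU and SERPINE2, and shRNA-UBC9 replicate 1 lies well above the other two in F3 and SERPINE2.

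Of the plasminogen activators, PLAT fell and PLAU did not pass the test. PLAU (chromosome 10, 73909177 to 73917496, plus strand, positions from GENCODE release 44 on hg38 here and below) had 52.1, 78.9 and 39.3 RPKM in shRNA-NC replicates 1, 2 and 3. In the shRNA-UBC9 samples it had 54.2, 70.6 and 77.3 RPKM. The ranges overlapped, with the highest value of all in shRNA-NC replicate 2. Its mean was 56.8 ± 20.2 RPKM in shRNA-NC and 67.4 ± 11.8 RPKM in shRNA-UBC9 (SD, n = 3 each), and the log2 fold change of 0.29 had a 95% interval from -0.26 to 0.84 (limma adjusted p = 0.374). The exons of PLAU share 915 bases with C10orf55, a non-coding gene on the other strand, which had at most 0.942 RPKM in any sample, and the sources do not state that strand was used in counting.

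PLAT (chromosome 8, 42174718 to 42207709, minus strand) had 28.3, 19.5 and 40.2 RPKM in the shRNA-NC samples and 14.3, 7.09 and 9.26 RPKM in the shRNA-UBC9 samples. Every shRNA-UBC9 value lay below every shRNA-NC value, although the values spread by about the same factor within each group, 2.07-fold and 2.02-fold from lowest to highest. The mean fell from 29.4 ± 10.4 to 10.2 ± 3.69 RPKM (SD, n = 3 each), or log2FC -1.51 (standard error, SE, 0.30, limma adjusted p = 0.00593). With shRNA-NC replicate 3 left out it was -1.25, and with shRNA-UBC9 replicate 1 left out it was -1.78. By log2FC it ranked 100 from the bottom of the tested genes.

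PLAUR (chromosome 19, 43646095 to 43670547, minus strand), the glycolipid-anchored receptor of urokinase, rose with little spread. It was at 12.96, 12.3 and 10.9 RPKM in the shRNA-NC samples and at 31.0, 32.8 and 37.5 RPKM in the shRNA-UBC9 samples. Within a group the highest value was at most 1.21 times the lowest, while the group means differed by 2.81-fold, 12.03 ± 1.07 against 33.8 ± 3.37 RPKM (SD, n = 3 each). This was a log2FC of 1.48 (SE 0.11, limma adjusted p = 6.04e-05). Its ligand PLAU, described above, did not pass the test.

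SERPINE2 (chromosome 2, 223975045 to 224039318, minus strand), also called protease nexin-1, inhibits thrombin, urokinase and tissue-type activator. Its values were 6.51, 9.50 and 7.22 RPKM in shRNA-NC and 28.4, 12.4 and 8.02 RPKM in shRNA-UBC9. The lowest shRNA-UBC9 sample, replicate 3, lay within the range of shRNA-NC, and replicate 1 was 3.54 times as high as replicate 3. Its log2 fold change of 0.88 had a 95% interval from -0.02 to 1.78 (limma adjusted p = 0.114). The value hung on single samples. It was 0.38 without shRNA-UBC9 replicate 1, and 1.28 without shRNA-UBC9 replicate 3, where SERPINE2 passed the cutoff (limma adjusted p = 0.0168). Over all 15 alternatives the adjusted p of SERPINE2 was at most 0.264.

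F3 (chromosome 1, 94529173 to 94541759, minus strand) was already among the higher of these genes in control cells, with 50.7, 77.0 and 50.3 RPKM in shRNA-NC replicates 1, 2 and 3. It reached 466, 173 and 144 RPKM in shRNA-UBC9 replicates 1, 2 and 3. Every shRNA-UBC9 sample was above every shRNA-NC sample, but replicate 1 stood far above the other two, so that the mean of 261 RPKM carried an SD of 178 (n = 3) against 59.3 ± 15.3 RPKM (SD, n = 3) in shRNA-NC. The log2 fold change was 1.96, with a 95% interval from 1.05 to 2.87 (SE 0.40, limma adjusted p = 0.00648). Without shRNA-UBC9 replicate 1 the estimate dropped to 1.44 and still passed the cutoff (limma adjusted p = 0.00125). The direction of F3 was thus shared by all 3 samples, while its size depended on one of them.

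TFPI (chromosome 2, 187464230 to 187565760, minus strand), the inhibitor of the F3 complex, moved the other way. It had 5.94, 5.18 and 7.91 RPKM in shRNA-NC and 4.17, 1.80 and 1.98 RPKM in shRNA-UBC9. The groups did not overlap, but shRNA-UBC9 replicate 1 came close to the lowest control. Its mean was 6.34 ± 1.41 RPKM in shRNA-NC and 2.65 ± 1.32 RPKM in shRNA-UBC9 (SD, n = 3 each), or log2FC -1.31 (SE 0.30, limma adjusted p = 0.0104). Without shRNA-UBC9 replicate 1 it was -1.67. It came near the cutoff in other settings, at -1.05 with a pseudocount of 1 and -1.09 without shRNA-UBC9 replicate 2. Without shRNA-NC replicate 3 it was -1.14 (limma adjusted p = 0.0429). The RPKM of TFPI is scaled to 11714 bases of exon from all its transcripts, and the membrane-bound and secreted forms were not separated.

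TFPI2 (chromosome 7, 93885396 to 93890753, minus strand) showed the largest change of the 8 genes. It had 39.2, 51.2 and 41.5 RPKM in the shRNA-NC samples and 779, 759.6 and 473 RPKM in the shRNA-UBC9 samples. The lowest shRNA-UBC9 value was far above the highest shRNA-NC value, and the mean rose 15.3-fold, from 43.9 ± 6.36 to 671 ± 171 RPKM (SD, n = 3 each). The log2FC of 3.90 (SE 0.20, limma adjusted p = 1.41e-05) ranked 52 from the top among 12428 tested genes. With any 1 sample left out it lay between 3.78 and 4.14. The number of reads assigned to TFPI2 went from 3112, 4719 and 3741 in the shRNA-NC samples to 74829, 71280 and 35567 in the shRNA-UBC9 samples.

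THBD (chromosome 20, 23045633 to 23049672, minus strand), a gene of a single exon, was the lowest of the 8 genes in control cells. Its values were 2.62, 2.66 and 2.04 RPKM in shRNA-NC and 5.70, 5.57 and 6.70 RPKM in shRNA-UBC9. The groups were well apart and the spread within each was small, with means of 2.44 ± 0.344 and 5.99 ± 0.619 RPKM (SD, n = 3 each). This was a log2FC of 1.27 (SE 0.13, limma adjusted p = 0.000337). With a pseudocount of 1 in place of 0.1 it was 1.02 and still passed the cutoff.

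PLAT, TFPI and THBD are also known as endothelial genes, and the endothelial markers were examined beside them. CDH5 was the only 1 of the 6 markers to pass the filter, and it fell from 2.87 ± 0.287 to 0.619 ± 0.390 RPKM (SD, n = 3 each, log2FC -2.20, limma adjusted p = 0.00288). PECAM1, KDR, TEK, VWF and CLDN5 were at most 0.0879 RPKM in any sample, and KDR and TEK were at 0 in every shRNA-NC sample. The summed level of the 6 markers ranged from 2.65 to 3.29 RPKM in shRNA-NC and from 0.357 to 1.08 RPKM in shRNA-UBC9. Nearly all of this was CDH5, at 2.58 to 3.15 RPKM in shRNA-NC and 0.241 to 1.02 RPKM in shRNA-UBC9, so the sum mostly repeats 1 gene. The sum was lower in the group where PLAT and TFPI were lower and THBD was higher, and its part in these results was not tested. The sum of the 6 epithelial markers was lower as well, between 938 and 1108 RPKM in shRNA-NC and between 426 and 563 RPKM in shRNA-UBC9. Only KRT7 among them was a DEG (log2FC -1.11, limma adjusted p = 0.000578). KRT8, KRT18 and KRT19 fell too, short of the fold cutoff (log2FC -0.81, -0.93 and -0.99, limma adjusted p = 0.0042, 0.000959 and 0.00698). The epithelial sum is nearly all keratin, and EPCAM had the opposite sign without passing (0.658 ± 0.296 and 1.505 ± 0.912 RPKM, SD, n = 3 each, log2FC 0.996, limma adjusted p = 0.0984).

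RPKM is scaled to gene length, so the levels of the 8 genes were set in order. The length recovered from the values was 11714 bases for TFPI and 2663 bases for TFPI2. Such lengths come from the annotation and not from the transcripts made in these cells, so the order between genes depends on them. In shRNA-NC the order of mean RPKM was F3, PLAU, TFPI2, PLAT, PLAUR, SERPINE2, TFPI and THBD. The sample ranges of F3 and PLAU, of PLAU and TFPI2, of TFPI2 and PLAT and of SERPINE2 and TFPI overlapped, so that these neighbours could not be ranked. In shRNA-UBC9 the order was TFPI2, F3, PLAU, PLAUR, SERPINE2, PLAT, THBD and TFPI, and only the neighbours SERPINE2 and PLAT overlapped. TFPI2 moved from a level shared with PLAU and PLAT to the top, above every value of F3. TFPI and THBD exchanged their places at the bottom, and their ranges did not overlap in either group.

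To follow the balance between partners, the ratio of RPKM values was formed within each sample, which removes the scaling of the sample. The level of a ratio depends on the gene lengths used, which were the same in both groups. Ratios are given without a pseudocount, while differences on the log2 scale and the tests used RPKM + 0.1 for both genes. The ratio of F3 to TFPI was 8.54, 14.9 and 6.36 in the shRNA-NC samples and 112, 96.3 and 72.5 in the shRNA-UBC9 samples, a difference of 3.27 on the log2 scale. The ratio of TFPI2 to TFPI went from between 5.25 and 9.88 to between 187 and 422, a difference of 5.21 on the log2 scale. F3 exceeded TFPI2 in every shRNA-NC sample, with ratios from 1.21 to 1.51, and was below TFPI2 in every shRNA-UBC9 sample, with ratios from 0.228 to 0.598. The ratio of PLAU to its receptor PLAUR was 3.62 to 6.43 in shRNA-NC and 1.75 to 2.15 in shRNA-UBC9. For these 4 ratios the groups did not overlap, and each gave p = 0.1 in a two-sided exact permutation test, the smallest that 3 samples against 3 allow, or 0.15 adjusted over the 6 ratios formed. PLAU to PLAT ranged from 0.977 to 4.05 in shRNA-NC and from 3.80 to 9.96 in shRNA-UBC9, and the groups overlapped (exact permutation test, p = 0.2). PLAU to SERPINE2 overlapped widely, with 5.44 to 8.31 against 1.91 to 9.64 (exact permutation test, p = 0.7).

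**Figure D2:**
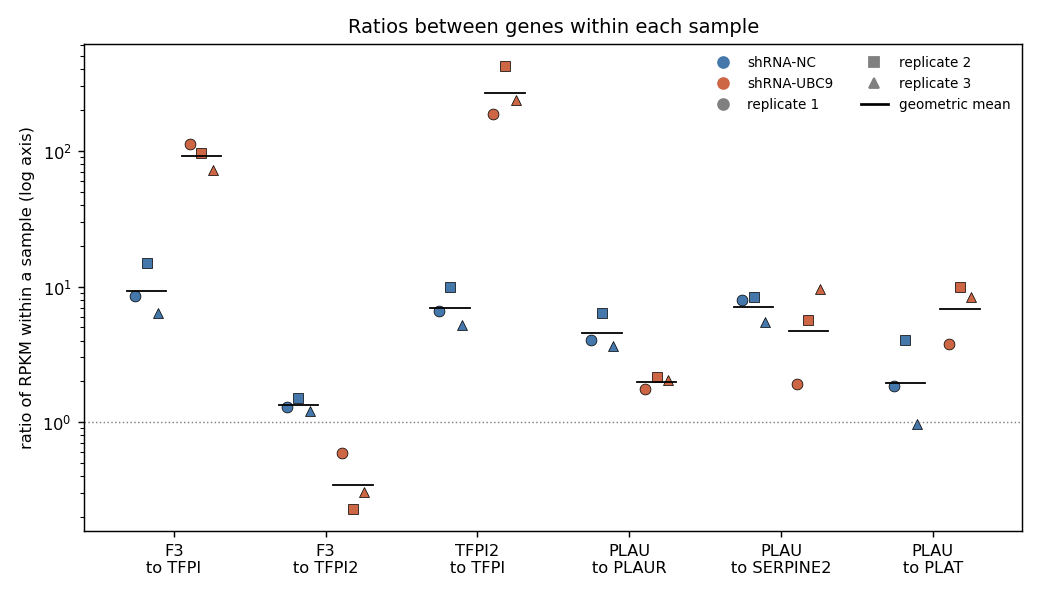
Ratio of the RPKM values of gene pairs within each sample (log axis), with a horizontal bar at the geometric mean of each group. F3 to TFPI and TFPI2 to TFPI are higher in all 3 shRNA-UBC9 samples, F3 to TFPI2 and PLAU to PLAUR are lower, and the groups overlap for PLAU to SERPINE2 and PLAU to PLAT.

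A further 4 lists of related genes placed these changes among their pathways. Of 19 other genes of the plasminogen system, 10 passed the filter, 1 rose and 0 fell past the cutoff. That 1 of 10 is to be read against the 7.89% of all tested genes that passed it in either direction. The list had a median log2 fold change of 0.11 over those tested, against 0.0048 over all tested genes. The gene that rose was SERPINB2, a serpin that inhibits plasminogen activators. SERPINB2 was at 0.378, 2.13 and 0.344 RPKM in shRNA-NC and at 501, 286 and 239 RPKM in shRNA-UBC9. Its log2FC of 8.70 (limma adjusted p = 4.41e-05) was the highest of all 12428 tested genes, and its control values rested on 31, 203 and 32 reads. The groups did not overlap for SERPINB2, but only 1 control sample reached 0.5 RPKM, so that it passed the filter through the shRNA-UBC9 samples and the size of its log2FC depends on the pseudocount. Plasminogen itself (PLG) was listed at 0 in all 6 samples.

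Among 19 coagulation factors and cofactors, 7 passed the filter and 12 did not, including F7, the ligand of F3, which was listed at 0 in all 6 samples. The 7 had a median log2 fold change of 0.07, and 1 of them passed the cutoff, against 7.89% of all tested genes in either direction. F8, the cofactor of the intrinsic pathway, was the only DEG, from 0.476 ± 0.060 to 1.07 ± 0.243 RPKM (SD, n = 3 each), and its log2 fold change of 1.002 lay at the cutoff (limma adjusted p = 0.00698). Only 1 control sample of F8 reached 0.5 RPKM. F8 no longer passed the cutoff with median scaling or quantile normalization, with a pseudocount of 1, or without shRNA-NC replicate 2, shRNA-NC replicate 3 or shRNA-UBC9 replicate 1. Of 10 anticoagulant genes, 5 were tested, with a median log2 fold change of 0.29. Up-regulated DEGs were 2 of these 5, against 5.20% of all tested genes. Both passed the filter only through the shRNA-UBC9 samples, so this share is a description. SERPIND1, the thrombin inhibitor heparin cofactor II, was at 0.0919, 0.0452 and 0.104 RPKM in shRNA-NC, from 7, 4 and 9 reads, and at 4.41, 3.41 and 2.98 RPKM in shRNA-UBC9, from 406, 307 and 215 reads. The log2FC was 4.36 (SE 0.22, limma adjusted p = 1.41e-05), a value that depends on the pseudocount because the control level is so low, and SERPIND1 passed the filter only through the shRNA-UBC9 samples. ADTRP, known as a regulator of TFPI, went from 0.396 ± 0.075 to 1.27 ± 0.449 RPKM (SD, n = 3 each), or log2FC 1.42 (limma adjusted p = 0.00594), and it too was below 0.5 RPKM in every control sample and passed the filter only through the shRNA-UBC9 samples. PROCR, the endothelial protein C receptor that works with THBD and was picked for this role after its values were seen, had 35.1 ± 5.17 and 43.4 ± 9.75 RPKM (SD, n = 3 each), and its log2 fold change of 0.29 did not pass (limma adjusted p = 0.241). Of the 4 protease-activated receptors, through which thrombin and other proteases signal, 3 were tested, with a median log2 fold change of -0.02, and 0 passed the cutoff. Without the fold threshold, 1 of these 3 had an adjusted p-value below 0.05 (limma), as had 36.8% of all tested genes.

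**Figure D3:**
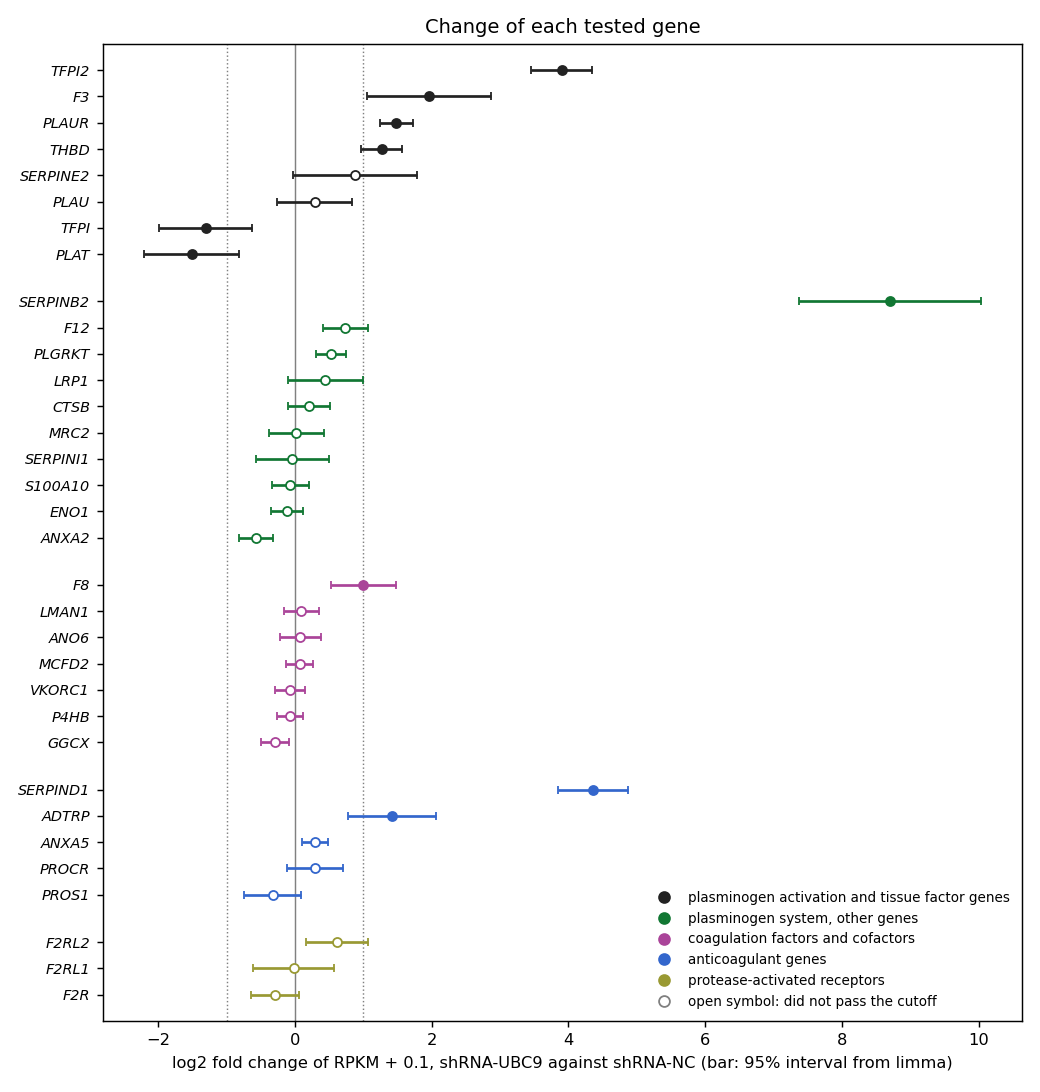
log2 fold change of RPKM + 0.1 with its 95% interval from limma for the 8 genes and for the tested genes of the 4 related lists, with dotted lines at the cutoff of 1 in either direction. Filled symbols passed the cutoff, and TFPI2, SERPINB2 and SERPIND1 lie furthest to the right while TFPI and PLAT are the 2 filled symbols on the left.

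The tested genes whose log2 values followed each of the 8 most closely over the 6 samples were also read out, as a description, since any gene that separates the groups correlates with the others that do. TFPI2 was followed most closely by RAB21 and HDAC9 (Pearson r = 0.9991 and 0.9990), and 938 tested genes had an r above 0.95 with it. SLC29A3 had an r of 0.9984 with PLAUR. SBNO2 and ATG101 came nearest to THBD (r = 0.9993 and 0.9989), and SPTY2D1 and RP11-488P3.1 to F3 (r = 0.9984 and 0.9962). TFPI was nearest to PKIA and RPS13 (r = 0.9996 and 0.9942), and PLAT to SMARCA2 and RBMS3 (r = 0.9978 and 0.9947). SERPINE2 was nearest to CFAP36 and HPS3 (r = 0.9945 and 0.9931), and PLAU, which did not separate the groups, to SERTAD2 and PSME3 (r = 0.9833 and 0.9756). Among the 8 genes themselves, PLAUR and THBD (r = 0.994), PLAT and TFPI (r = 0.974) and PLAUR and TFPI2 (r = 0.968) were the closest pairs.

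The shRNA-UBC9 samples did not vary alike in these genes. Replicate 1 held the highest value of its group for 5 genes, PLAT, SERPINE2, F3, TFPI and TFPI2, and replicate 3 for the other 3, PLAU, PLAUR and THBD. Within shRNA-NC, replicate 2 held the highest value for 5 genes, PLAU, SERPINE2, F3, TFPI2 and THBD. These shRNA-UBC9 samples had totals of 36058872, 35235789 and 28219032 reads, and the part of depth in the differences between them was not tested. For the 6 DEGs among the 8 genes, none of the 15 alternatives removed the call or turned its direction.

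**Figure D4:**
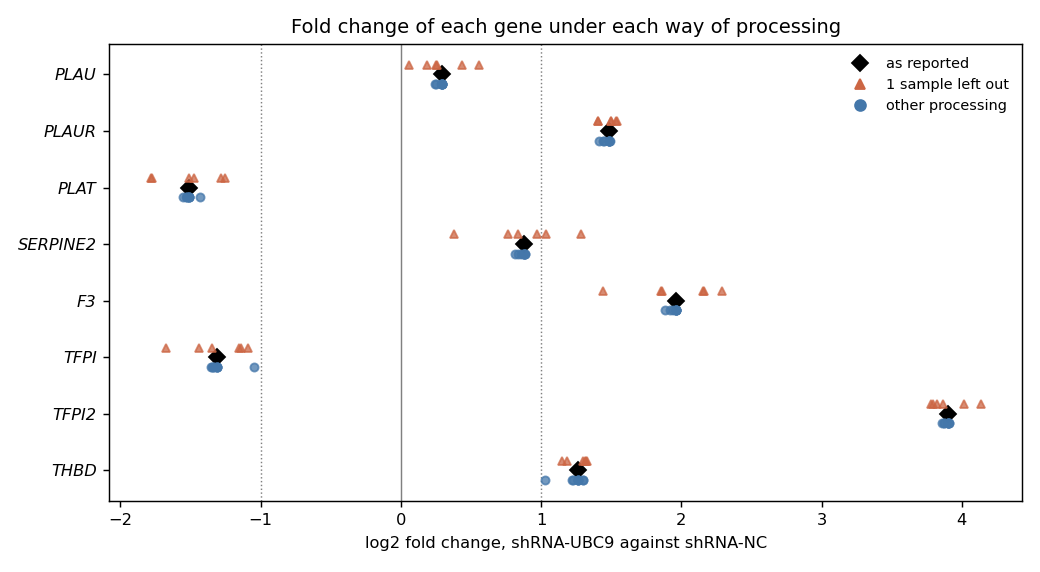
log2 fold change of each of the 8 genes as reported (diamonds), with 1 sample left out (triangles) and under other processing (circles), with dotted lines at the cutoff of 1 in either direction. Leaving out a sample moved SERPINE2 and F3 most, from 0.38 to 1.28 and from 1.44 to 2.29, while the triangles of PLAUR and TFPI2 stay close to their diamonds.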

How the data were processed

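RNA-seq of T24 cells was analysed for 3 shRNA-NC and 3 shRNA-UBC9 samples, grouped by their titles. According to the methods of the study, adaptors were trimmed and reads mapped to GRCh38 in the CLC Biomedical Genomics Workbench 4 with its default settings. The authors deposited RPKM values for 58174 gene symbols per sample. The annotation release, strand use and handling of multi-mapped reads are not given in the sources used here, and RPKM does not correct for RNA composition.

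RPKM values were taken to log2(RPKM + 0.1), and limma 3.58.1 (R 4.3.3) tested shRNA-UBC9 against shRNA-NC (intensity trend, no block) over the 12428 genes with at least 0.5 RPKM in at least 3 samples, with Benjamini-Hochberg adjustment. This scale understates the change of low genes. Named were all 8 genes, each DEG of the 4 lists, and for each of the 8 the 2 tested genes of highest correlation. Some genes that this rule names are not reported here and were left out of the lists. The genes and lists were chosen with earlier results of these data known.

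Each RPKM is a whole number of reads scaled by gene length and sample total. The totals were read from the steps of low values and the GENCODE release 44 lengths, and whole reads (to within 1e-06 reads, plus 1e-09 of the value) were recovered for 100% of the tested genes. For 16.5% of the tested genes the length was that of GENCODE release 44. For the others it was the smallest whole length that gave whole reads in every sample, so their reads rest on inferred lengths. Recovered reads summed to between 91.9% and 93.0% of the totals. Whether a pair counted as 1 read is not stated. A limma-voom fit on these reads was added as an alternative. The fit was tested on simulated data beforehand. Ratios used two-sided exact permutation tests. Python 3.11.15, numpy 2.4.6, pandas 2.3.3, scipy 1.17.1 and matplotlib 3.10.9 were used. Alternatives were other pseudocounts, filters, scalings and cutoffs, no trend, a replicate block and leaving out each sample.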

Additional observations from a re-analysis of the deposited data

How the results depend on the processing

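Over all alternatives, 4 of the 8 genes were up-regulated and 2 down-regulated DEGs, except that 5 were up-regulated without shRNA-UBC9 replicate 3, where SERPINE2 joined them. The adjusted p-values of the 6 DEGs were at most 0.0429, for TFPI without shRNA-NC replicate 3 (limma). The difference in the log2 ratio of PLAU to SERPINE2, -0.59, ranged from -1.10 to 0.0601 with 1 sample left out, and turned positive, to 0.0601, without shRNA-UBC9 replicate 1. Over all tested genes, 646 up-regulated and 335 down-regulated DEGs became 391 and 161 with a pseudocount of 1, 342 and 210 with at least 1 RPKM required in every sample, and 2339 and 2237 with no fold threshold. Of the other plasminogen genes, 0 in place of 1 passed with at least 1 RPKM in every sample, where SERPINB2 was not tested, and 2, SERPINB2 and ST14, passed with no filter on low values. The coagulation list had 0 in place of 1 with a pseudocount of 1, that same filter, quantile normalization or median scaling, and between 0 and 1 with a sample left out. The anticoagulant list had 1 in place of 2 with a pseudocount of 1 and 0 with at least 1 RPKM in every sample, where neither SERPIND1 nor ADTRP was tested. The titles number the samples of both groups 1 to 3, but samples of the same number did not deviate together (Pearson r from -0.37 to 0.07 over the tested genes). The highest r between the groups was 0.53, for shRNA-NC replicate 1 with shRNA-UBC9 replicate 3. These samples had the lowest totals of their groups, 29847726 and 28219032 reads, and the part of depth was not tested. With the sample number as a replicate block, 4 and 2 of the 8 genes passed as before. The limma-voom fit on recovered reads, chosen after seeing the data, also gave 4 and 2. Groups of 3 are too small to test a single sample as an outlier.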

Other observations

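A pair of genes of the plasminogen list lay below the filter on low values, but their values differed between the groups; they were picked after these values were seen. ST14, the protease matriptase that can activate pro-urokinase, had 0, 5 and 2 reads in shRNA-NC replicates 1, 2 and 3 and 42, 31 and 9 reads in shRNA-UBC9 replicates 1, 2 and 3, which is at most 0.268 RPKM. SERPINF2, the main inhibitor of plasmin in plasma, had 4, 8 and 7 reads in the shRNA-NC samples and 29, 15 and 13 reads in the shRNA-UBC9 samples, at most 0.343 RPKM.

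Beside PPARG, which fell from 17.5 ± 3.04 to 4.21 ± 2.31 RPKM (SD, n = 3 each), the urothelial list held only 1 other tested gene, GATA3, with a log2FC of -0.79 (limma adjusted p = 0.016). PPARG had a log2FC of -2.15 (limma adjusted p = 0.00169) and every shRNA-UBC9 sample was below every shRNA-NC sample. Of the 6 fibroblast markers, 2 were tested, with opposite signs. PDGFRB had 0.764 ± 0.230 and 0.202 ± 0.014 RPKM (SD, n = 3 each, log2FC -1.48, limma adjusted p = 0.00325), and COL1A1 had 0.377 ± 0.137 and 0.818 ± 0.221 RPKM (log2FC 0.95, limma adjusted p = 0.0276, short of the fold cutoff). Each passed the filter through the group where it was higher, and the sum of the 6 markers overlapped between the groups, at 0.988 to 1.32 RPKM in shRNA-NC and 0.893 to 1.31 RPKM in shRNA-UBC9.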
